A study of Mus musculus with 6 samples.

Results

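Atrial RNA from 6 old mice was read here for 8 genes that encode subunits of inward rectifier potassium channels and of the ATP-sensitive potassium (KATP) channel. They are Kcnj2 and Kcnj12 (Kir2.1 and Kir2.2), Kcnj3 and Kcnj5 (Kir3.1 and Kir3.4), Kcnj8 and Kcnj11 (Kir6.1 and Kir6.2), and Abcc8 and Abcc9 (the sulphonylurea receptors SUR1 and SUR2). The genes were listed by name, not by their values, and all 8 were found among the 54838 genes of the count table. The series compares mice lacking protein kinase C epsilon (PKC-epsilon, gene Prkce; JAX stock #004189) with wild-type C57BL/6J mice, 3 of each, both sexes included. Mice were 20.9 ± 0.43 months old on average (the kind of error is not said), and the labels name neither the sex of a single mouse nor a cell type to which the deletion is restricted.

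Inward rectifiers pass potassium more easily into the cell than out of it and hold the membrane near its resting potential. Kir2 channels carry the resting current of the working heart muscle cell. Kir3.1 and Kir3.4 assemble into the channel that opens when vagal acetylcholine acts on the M2 muscarinic receptor, a current that is strong in the atrium and the sinoatrial node. KATP channels join a Kir6 pore to a sulphonylurea receptor and open when ATP falls; in mice, atrial muscle uses SUR1 and ventricular muscle a splice form of SUR2, and vascular smooth muscle and pericytes pair Kir6.1 with SUR2. Protein kinase C can change the activity of Kir3 and KATP channels by phosphorylation.

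For 4 of the 6 libraries the labels contradict one another on genotype. Below, libraries are named by the genotype in the library name, and the genotype field of the labels, with which title and mouse line go, is given as the other reading. KO replicate 1, WT replicate 2 and WT replicate 3 have KO in the genotype field, and KO replicate 2, KO replicate 3 and WT replicate 1 have WT. Prkce was at 9.20, 5.15 and 28.6 CPM (counts for every 1000000 counts of the library) in KO replicates 1, 2 and 3, and at 36.2, 11.7 and 30.2 CPM in WT replicates 1, 2 and 3, so KO replicate 3 and WT replicate 2 went against the library name, and KO replicate 2 and WT replicate 3 against the genotype field. The labels do not say which part of the gene is deleted, so a count over the whole gene checks them only in part. Total counts ran from 11574206 to 24138824. WT replicate 1 stood apart on the first principal component, which held 38.8% of the variance. The summed level of 4 Y-linked genes was 78.9 to 126 CPM in the KO libraries, and 1.08, 1.09 and 146 CPM in WT replicates 1, 2 and 3. By these levels WT replicates 1 and 2 read as female and the other libraries as male. Sex is thus unbalanced by library name, whereas by genotype field the female libraries fall in different groups.

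All 8 subunits were well detected. In edgeR's quasi-likelihood test 0 of 8 were called between KO and WT by library name, beside 0% of all 14708 genes tested. Read by genotype field, 0 of 8 were called, beside 0.0136% of all genes. These fits did not pair libraries by replicate number. A fit with replicate number as a block called 51 genes by genotype field and 0 of the 8 subunits. With so few genes called anywhere, these counts say little about the subunits in particular. The gene that lay nearest to a difference was Kcnj12, lower in the 3 libraries named KO, at -0.59 on the log2 scale (SE 0.23, adjusted p = 0.99993). WT replicate 1 was the highest library for 5 of the 8 genes, beside 27.4% of all genes tested. KO replicate 2 was the lowest for 5, beside 17.8% of all genes.

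Per kb of exon, the acetylcholine-gated pair and the KATP pore Kir6.2 were the most abundant of the 8 transcripts, an order that differs per kb of gene body (given after it). On the scale of CPM per kb of summed exon length, Kcnj3 ranged over the 6 libraries from 91.8 to 160, Kcnj5 from 43.8 to 68.9 and Kcnj11 from 41.4 to 54.1. The ranges of Kcnj5 and Kcnj11 overlap, and Kcnj11 was above Kcnj5 in WT replicate 3. Abcc8 followed at 13.5 to 19.2, Kcnj8 at 11.6 to 14.7 and Abcc9 at 6.86 to 11.2 CPM per kb. Abcc8 and Kcnj8 were not parted beyond their spread, since Kcnj8 was the higher in KO replicate 2, whereas Abcc9 was below Kcnj8 in all 6 libraries. Kcnj2 at 4.02 to 7.71 and Kcnj12 at 3.72 to 8.42 CPM per kb were lowest on this scale and could not be ordered on it: Kcnj12 was above Kcnj2 in WT replicates 1 and 3 and below it in the other 4 libraries.

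**Figure D1:**
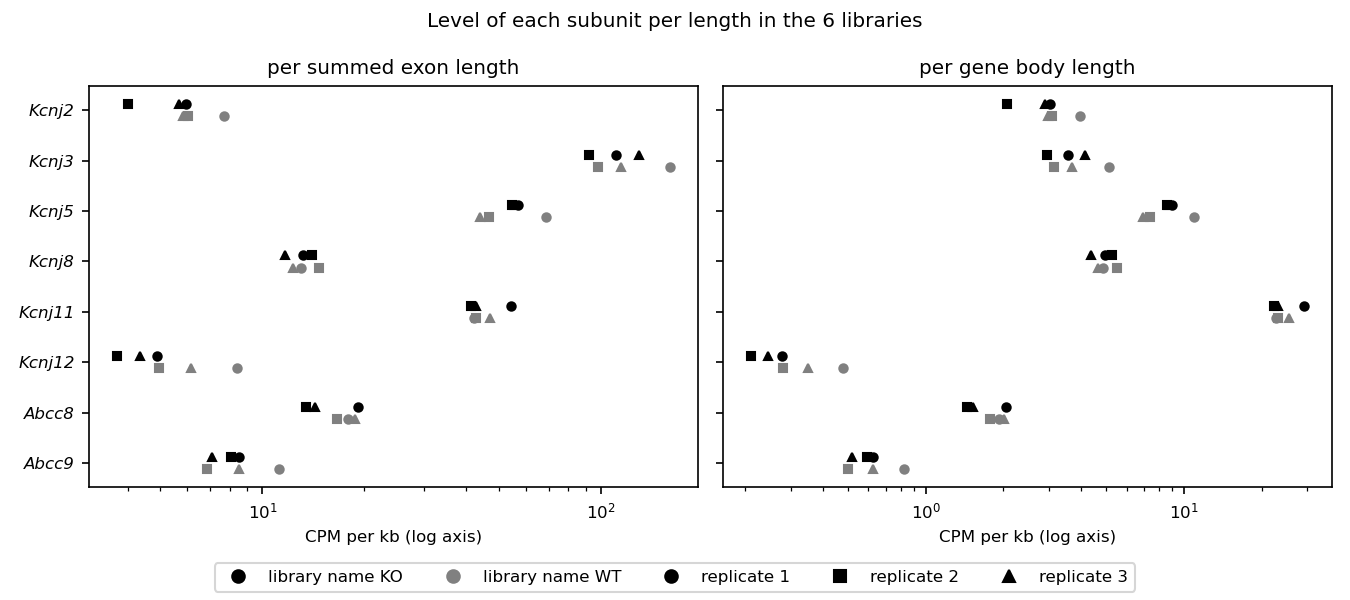
Level of the 8 subunits in the 6 libraries as CPM per kb on log axes, divided by summed exon length on the left and by gene body length on the right; black points are libraries named KO, grey points libraries named WT, and shapes give the replicate. Kcnj3 leads per exon length, from 91.8 to 160 CPM per kb, and Kcnj11 leads per gene body length.

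The order depends on which length is used. Per kb of gene body, introns included, Kcnj11 was highest in all 6 libraries at 24.3 ± 2.6 CPM per kb (SD, n = 6), Kcnj5 came next at 8.59 ± 1.39, and Kcnj3, whose body of 162.2 kb holds only 5.215 kb of exons, stood at 3.77 ± 0.79, below Kcnj8 at 4.93 ± 0.41. Kcnj3 ranked 4 of 8 in all libraries but WT replicate 1. Kcnj2 at 2.05 to 3.94 CPM per kb of gene body was then far above Kcnj12 at 0.211 to 0.477 in every library, and on average also above Abcc8 at 1.79 ± 0.25 and Abcc9 at 0.614 ± 0.114. The table appears to have been counted over gene bodies: of 679 protein-coding genes with no free body but exons clear of other exons, 676 had 0 counts in all 6 libraries. Intron reads are then included, and neither scale is exact. Kcnj3 has 68.9% of its exon length free of other genes, the rest lying opposite the antisense gene Gm26794, so its counts may leave out reads from there. The free share of exons was 95.6% in Abcc8, 97.0% in Abcc9 and 100% in the other 5 genes.

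Kcnj2, on chromosome 11 at 111066164 to 111076821 on the plus strand (GRCm38), encodes the main pore of the resting current. Its level was 32.3, 21.9 and 30.8 CPM in KO replicates 1, 2 and 3, and 42.0, 32.9 and 31.7 CPM in WT replicates 1, 2 and 3. KO replicate 2 was low and WT replicate 1 high, and the other 4 libraries lay close together, so the groups overlap. Its log2 fold change was -0.32 (SE 0.19, 95% interval -0.74 to 0.09, adjusted p = 0.99993) by library name and 0.03 (SE 0.21, interval -0.43 to 0.49, adjusted p = 0.986) by genotype field.

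Kcnj12, on the same chromosome at 61022564 to 61071131 on the plus strand, encodes a second pore that can co-assemble with Kir2.1. Its level was 13.5, 10.2 and 11.9 CPM in KO replicates 1, 2 and 3, from 237, 141 and 244 counts, and 23.1, 13.6 and 17.0 CPM in WT replicates 1, 2 and 3, from 386, 162 and 387 counts. The groups by library name do not overlap, but only just: the Poisson intervals of KO replicate 1 (11.8 to 15.3 CPM) and WT replicate 2 (11.6 to 15.9 CPM) share most of their range. Of 14708 genes tested, 5.95% had groups that do not overlap, 3.33% with KO higher and 2.62% with KO lower; of the 8 subunits, 0 were higher and 1 lower in this sense. The averages were 11.9 ± 1.6 CPM in KO and 17.9 ± 4.8 CPM in WT libraries (SD, n = 3 each).

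The 95% interval of the log2 fold change of Kcnj12 by library name, -1.09 to -0.10, lies below 0, yet the unadjusted p of 0.0236 ranks 76 among 14708 genes and did not survive adjustment. Without WT replicate 1 the value was -0.37 (SE 0.21), and within the 4 libraries of the numbered series it was -0.46 (SE 0.23). Without the pair of libraries at odds with Prkce it was -0.75 (SE 0.27), and with the Y-linked level as a covariate -0.54 (SE 0.31); adjusted p was 0.952 or above in every one of the 15 alternatives. By genotype field the groups of Kcnj12 overlap, as they do for all 8 subunits (beside 7.48% of all genes with KO higher, 4.49% with KO lower and 12% in either direction without overlap), and the log2 fold change was -0.04 (SE 0.29, interval -0.67 to 0.60, adjusted p = 0.988).

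Over the 6 libraries Kcnj2 and Kcnj12 were the most alike of the 28 pairs of subunits, with a Pearson r of 0.87 on log2(CPM + 0.5), and over 5 libraries without WT replicate 1, at 0.75, they were no longer so, since Kcnj12 and Abcc8 had 0.853 and Kcnj11 and Abcc8 0.835. These values come from the same libraries with their shared depth and tissue mix, and describe these libraries only. Both promoters are printed as those of the Kir2 pair, alike over the 6 libraries; these 300 bases (250 before to 50 after the RefSeq transcript start, GRCm38.p6) run 5′ to 3′ on the gene's strand, and capitals mark motif matches.
Kcnj2 (chr11:111065914-111066213, plus strand): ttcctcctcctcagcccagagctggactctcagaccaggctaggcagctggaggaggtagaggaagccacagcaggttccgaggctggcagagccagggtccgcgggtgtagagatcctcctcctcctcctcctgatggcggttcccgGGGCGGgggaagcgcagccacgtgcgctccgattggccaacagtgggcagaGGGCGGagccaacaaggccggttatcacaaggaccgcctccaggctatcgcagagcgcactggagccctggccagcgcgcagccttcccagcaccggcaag
Kcnj12 (chr11:61065554-61065853, plus strand): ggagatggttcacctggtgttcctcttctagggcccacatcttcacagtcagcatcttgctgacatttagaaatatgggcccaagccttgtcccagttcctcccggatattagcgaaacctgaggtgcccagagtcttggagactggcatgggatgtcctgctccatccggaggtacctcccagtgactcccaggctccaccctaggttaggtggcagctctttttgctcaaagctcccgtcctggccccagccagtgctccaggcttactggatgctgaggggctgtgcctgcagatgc
On both strands 5 motifs were searched. GGGCGG, the GC box, is found in 35.7% of all 32851 promoters of this length, and TATAAA, the usual TATA box, in 13.6%. TGANTCA, where AP-1 factors bind, is found in 7.81%. TNAAGTG, known for NKX2-5 binding, is found in 11.5%, and AGATAA, known for binding of GATA factors, in 11.2%. The Kcnj2 window holds 2 GC boxes, at -102 to -97 and at -51 to -46 (counted from 0 at the start), and none of the 5 motifs is in the Kcnj12 window. GC content was 66.7% for Kcnj2 and 57.0% for Kcnj12, whose RefSeq start lies inside the gene body that GENCODE gives.

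**Figure D2:**
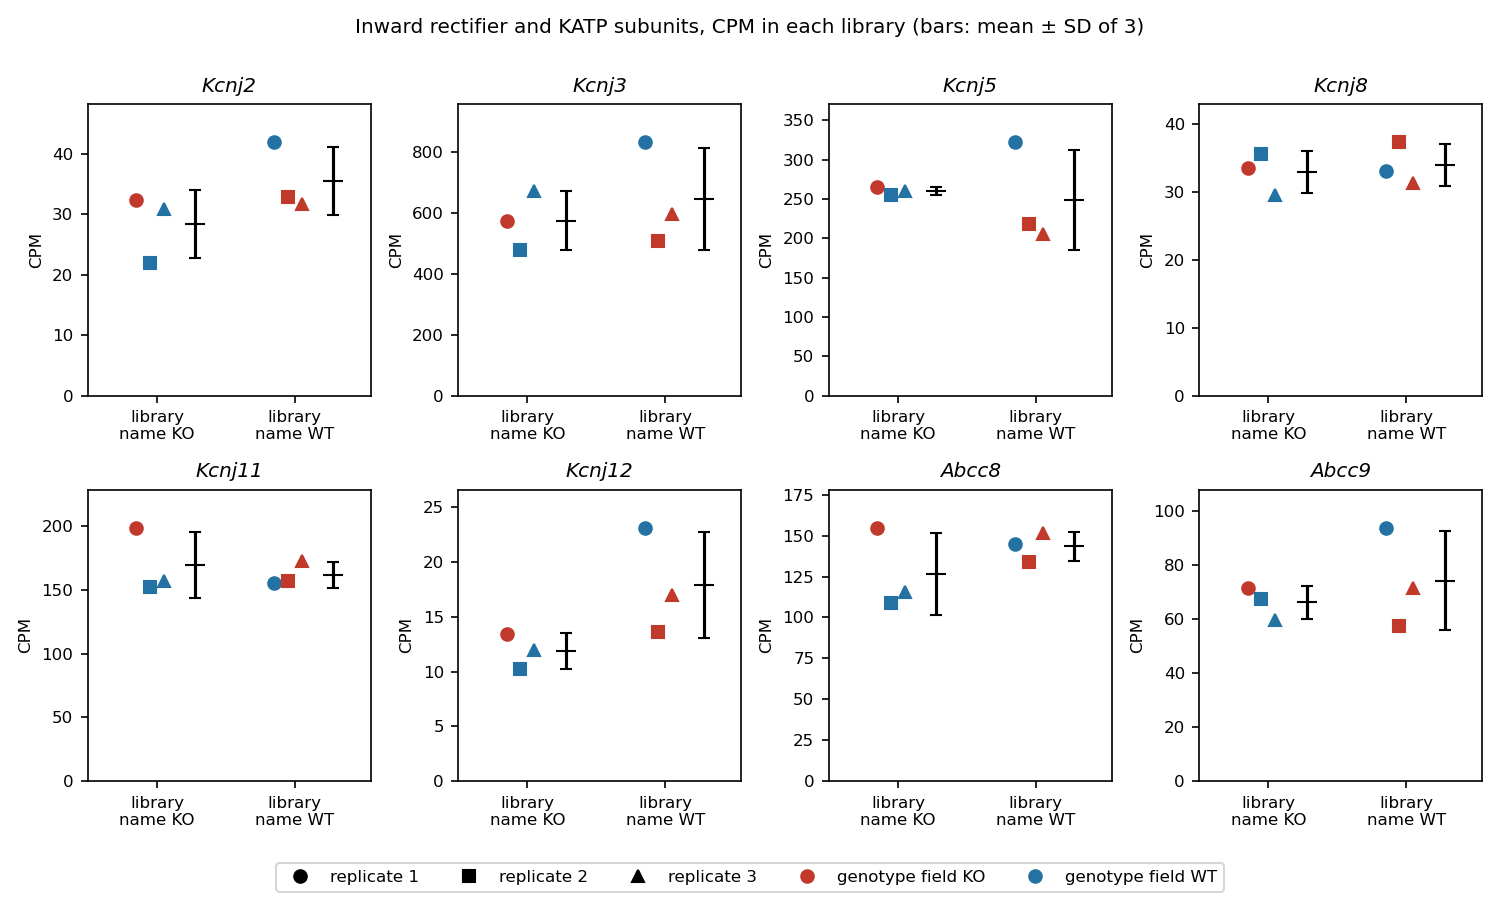
CPM of the 8 subunits in each library, with libraries named KO on the left and libraries named WT on the right of each panel; shapes give the replicate, red is KO and blue is WT in the genotype field, and bars are the mean ± SD of 3. Kcnj12 is the 1 panel whose groups do not overlap, and WT replicate 1 is the highest point for Kcnj2, Kcnj3, Kcnj5, Kcnj12 and Abcc9.

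Kcnj3, on chromosome 2 at 55435970 to 55598145 on the plus strand, encodes Kir3.1, which needs a partner to reach the surface. Its level was 575, 479 and 672 CPM in KO replicates 1, 2 and 3, and 834, 509 and 597 CPM in WT replicates 1, 2 and 3. WT replicate 1 was highest and the other 5 libraries interleave, so the groups overlap. For Kcnj3 the log2 fold change was -0.17 (SE 0.20, interval -0.62 to 0.28, adjusted p = 0.99993) by library name and -0.24 (SE 0.20, interval -0.67 to 0.19, adjusted p = 0.909) by genotype field. Without WT replicate 1 the value by library name was 0.06 (SE 0.17), so its sign rests on that library.

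Kcnj5, on chromosome 9 at 32314707 to 32344350 on the minus strand, encodes the partner Kir3.4. Its level was 266, 255 and 260 CPM in KO replicates 1, 2 and 3, and 323, 219 and 205 CPM in WT replicates 1, 2 and 3. The 3 KO libraries lie close together, with a SD of 5.5 CPM around 260.2 CPM, inside the wider range of the WT libraries, which averaged 249 ± 64 CPM (SD, n = 3). The log2 fold change was 0.06 (SE 0.18, interval -0.34 to 0.47, adjusted p = 0.99993) by library name. By genotype field it was -0.28 (SE 0.16, interval -0.63 to 0.07, adjusted p = 0.904), with overlapping groups.

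The ratio of Kcnj3 to Kcnj5, both per kb of exon, was 1.94, 1.69 and 2.32 in KO replicates 1, 2 and 3, and 2.32, 2.09 and 2.61 in WT replicates 1, 2 and 3. Kir3.1 transcripts thus exceeded those of Kir3.4 in all 6 libraries on this scale, whereas per kb of gene body Kcnj5 was the higher in all 6. The pair had a Pearson r of 0.655 over the 6 libraries, and of 0.114 over 5 without WT replicate 1. The promoters of the 2 genes are shown for this channel's pair, in the same form as those above.
Kcnj3 (chr2:55435720-55436019, plus strand): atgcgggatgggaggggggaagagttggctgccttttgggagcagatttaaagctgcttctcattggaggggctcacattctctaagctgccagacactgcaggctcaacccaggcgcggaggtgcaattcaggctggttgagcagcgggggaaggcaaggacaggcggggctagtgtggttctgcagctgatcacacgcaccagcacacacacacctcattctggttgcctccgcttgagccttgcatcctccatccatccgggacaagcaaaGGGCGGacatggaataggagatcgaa
Kcnj5 (chr9:32344295-32344594, minus strand): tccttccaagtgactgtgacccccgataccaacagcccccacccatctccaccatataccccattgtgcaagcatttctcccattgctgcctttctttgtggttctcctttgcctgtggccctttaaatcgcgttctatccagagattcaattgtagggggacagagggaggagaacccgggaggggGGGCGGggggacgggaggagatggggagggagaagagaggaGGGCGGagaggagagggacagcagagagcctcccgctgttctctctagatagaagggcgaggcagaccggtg
The Kcnj3 window holds 1 GC box, 24 to 29 bases past the start, and the Kcnj5 window holds 2, at -63 to -58 and at -22 to -17. No match to the other 4 motifs is in either window. GC content was 57.7% for Kcnj3 and 58.3% for Kcnj5.

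Kcnj11, on chromosome 7 at 46093953 to 46100764 on the minus strand, encodes Kir6.2, the KATP pore of heart muscle. Its level was 199, 152 and 157 CPM in KO replicates 1, 2 and 3, and 155, 157 and 173 CPM in WT replicates 1, 2 and 3. KO replicate 1 was highest and the other 5 libraries interleave, so the groups overlap. In edgeR the log2 fold change was 0.07 (SE 0.16, interval -0.27 to 0.41, adjusted p = 0.99993) by library name and 0.19 (SE 0.14, interval -0.12 to 0.49, adjusted p = 0.909) by genotype field.

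Abcc8 (46104523 to 46180033) encodes SUR1 and ends 3.758 kb before the start of Kcnj11, on the same strand. Its level was 155, 109 and 115 CPM in KO replicates 1, 2 and 3, and 145, 134 and 152 CPM in WT replicates 1, 2 and 3. KO replicates 2 and 3 were the lowest of all, but KO replicate 1 was the highest, so the groups overlap. The log2 fold change was -0.18 (SE 0.17, interval -0.55 to 0.18, adjusted p = 0.99993) by library name. By genotype field it was 0.26 (SE 0.15, interval -0.07 to 0.58, adjusted p = 0.905), again with overlapping groups. SUR1 is best known from the pancreatic beta cell; the insulin genes Ins1 and Ins2 had 0 counts in all 6 libraries, where 3 counts would be 0.132 to 0.252 CPM.

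Kcnj8, on chromosome 6 at 142564837 to 142571614 on the minus strand, encodes Kir6.1, the KATP pore of vascular smooth muscle and pericytes, and varied least of the 8 genes. Its level was 33.6, 35.6 and 29.6 CPM in KO replicates 1, 2 and 3, and 33.0, 37.4 and 31.3 CPM in WT replicates 1, 2 and 3. The highest library was 1.26 times the lowest, against 2.26 times for Kcnj12, and the groups overlap. Its log2 fold change was -0.04 (SE 0.15, interval -0.38 to 0.29, adjusted p = 0.99993) by library name and 0.06 (SE 0.14, interval -0.26 to 0.37, adjusted p = 0.966) by genotype field.

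Over the 6 libraries, Kcnj8 had a Pearson r of 0.84 with the summed level of 7 mural cell markers. These were Rgs5, Pdgfrb, Notch3, Cspg4, Acta2, Myh11 and Tagln. The other 7 subunits were between -0.87 and -0.22, with Abcc9, which encodes the mural partner of Kir6.1, at -0.35. For Kcnj8 r was also above 0 with the summed markers of sinoatrial node (0.66), macrophages (0.59), Schwann cells (0.53), adipocytes (0.41), endothelium (0.32) and fibroblasts (0.30), and 0.03 with ventricular markers. Over all subunits and marker lists, the 0.84 of Kcnj8 was not the largest r in size. Kcnj11 had 0.85 with the atrial muscle markers, and Kcnj3 had -0.89 with the macrophage markers. Whether genes other than the subunits had such an r with the mural sum was not tested. The value is thus a description and is not shown to be particular to Kcnj8. The mural marker sum was 758, 984 and 659 CPM in KO replicates 1, 2 and 3, and 689, 904 and 752 CPM in WT replicates 1, 2 and 3. KO replicate 2 and WT replicate 2 were thus highest for this sum and for Kcnj8, and KO replicate 3 lowest for both. Rgs5 was the largest part of the sum, at 387 to 527 CPM. Not every marker followed it, since Notch3 was lowest in KO replicate 2 (3.12 CPM) and WT replicate 2 (1.94 CPM). The share of the body free of other genes was 54.3% in Notch3 and 42.0% in Tagln. In bulk tissue a difference in the number of cells of a type and one in RNA per cell cannot be told apart.

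Abcc9, which lies 16.2 kb from Kcnj8 on the same strand (142587862 to 142702315), encodes SUR2, whose splice forms serve ventricular muscle and vessels and are not parted by these counts. Its level was 71.4, 67.7 and 59.6 CPM in KO replicates 1, 2 and 3, and 94.0, 57.4 and 71.4 CPM in WT replicates 1, 2 and 3. WT replicate 1 was highest and WT replicate 2 lowest, so the KO libraries lie inside the WT range. The log2 fold change was -0.17 (SE 0.18, interval -0.57 to 0.23, adjusted p = 0.99993) by library name and -0.14 (SE 0.18, interval -0.54 to 0.25, adjusted p = 0.935) by genotype field. The neighbours Kcnj8 and Abcc9 had a Pearson r of -0.13 over the 6 libraries, and the neighbours Kcnj11 and Abcc8 had 0.70. The latter value is not particular to neighbours, since Abcc8 had 0.69 with both Kcnj12 and Kcnj2, which lie on chromosome 11. Promoter entries were found for 6 of the 8 genes; Kcnj11 and Abcc8 have none. The Kcnj8 window has 1 NKX2-5 match and the Abcc9 window 1 GC box.

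**Figure D3:**
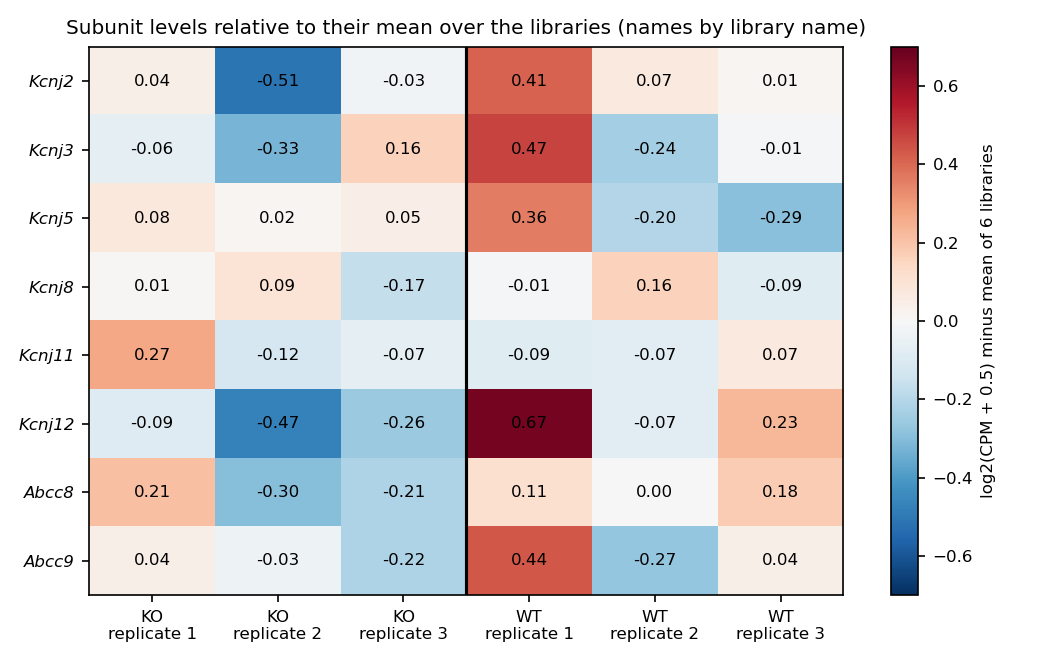
Level of each subunit in each library relative to its mean over the 6 libraries, as log2(CPM + 0.5); rows are genes, columns are libraries, with those named KO left of the line and those named WT right of it. The WT replicate 1 column is high for 5 genes, up to 0.67 for Kcnj12, and the KO replicate 2 column is low for Kcnj2 (-0.51) and Kcnj12 (-0.47).

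The extremes fell mostly on a pair of libraries. KO replicate 2 was the lowest library for 5 of the 8 subunits, namely Kcnj2, Kcnj3, Kcnj11, Kcnj12 and Abcc8, and WT replicate 1 the highest for Kcnj2, Kcnj3, Kcnj5, Kcnj12 and Abcc9. Over all genes tested WT replicate 1 was the highest library for 27.4% and the lowest for 25.1%, the largest share at either end, and KO replicate 2 was lowest for 17.8%. The median of the 8 genes relative to their means was 0.04, -0.21 and -0.12 on the log2 scale in KO replicates 1, 2 and 3, and 0.38, -0.07 and 0.03 in WT replicates 1, 2 and 3, while the median of all genes stayed between -0.01 and 0.01. Summed adipocyte markers (Adipoq, Plin1, Cfd and Ucp1) were also uneven, at 19.9, 125 and 53.4 CPM in KO replicates 1, 2 and 3, and 15.6, 109 and 48.3 CPM in WT replicates 1, 2 and 3. Their part in the levels of the subunits was not tested.

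Taken as a group by library name, 2 of the 8 subunits were higher and 6 lower in KO, with a median log2 fold change of -0.17, beside -0.02 over all 14708 genes, of which 45.5% were higher. By genotype field 4 were higher and 4 lower, with a median of -0.004 beside -0.01 over all genes, of which 48.1% were higher. The share of all genes called was 0% by library name and 0.0136% by genotype field, in fits without pairing by replicate number. At an unadjusted p under 0.05 edgeR held 1 of the 8 subunits by library name, Kcnj12, beside 1.49% of all genes, and 0 by genotype field, beside 5.69%. DESeq2 and limma-voom called 0 subunits in both readings, and their counts over all genes are given in the last section. The 95% intervals, as a ratio of the KO to the WT level, were widest on the log2 scale for Kcnj12, at 0.469 to 0.936 by library name and 0.627 to 1.511 by genotype field. By library name they were 0.599 to 1.066 for Kcnj2, 0.652 to 1.213 for Kcnj3, 0.791 to 1.381 for Kcnj5, 0.769 to 1.226 for Kcnj8, 0.828 to 1.327 for Kcnj11, 0.685 to 1.133 for Abcc8 and 0.674 to 1.177 for Abcc9. By genotype field the other 7 ran from 0.629 (Kcnj3) at the low end to 1.4999 (Abcc8) at the high end.

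**Figure D4:**
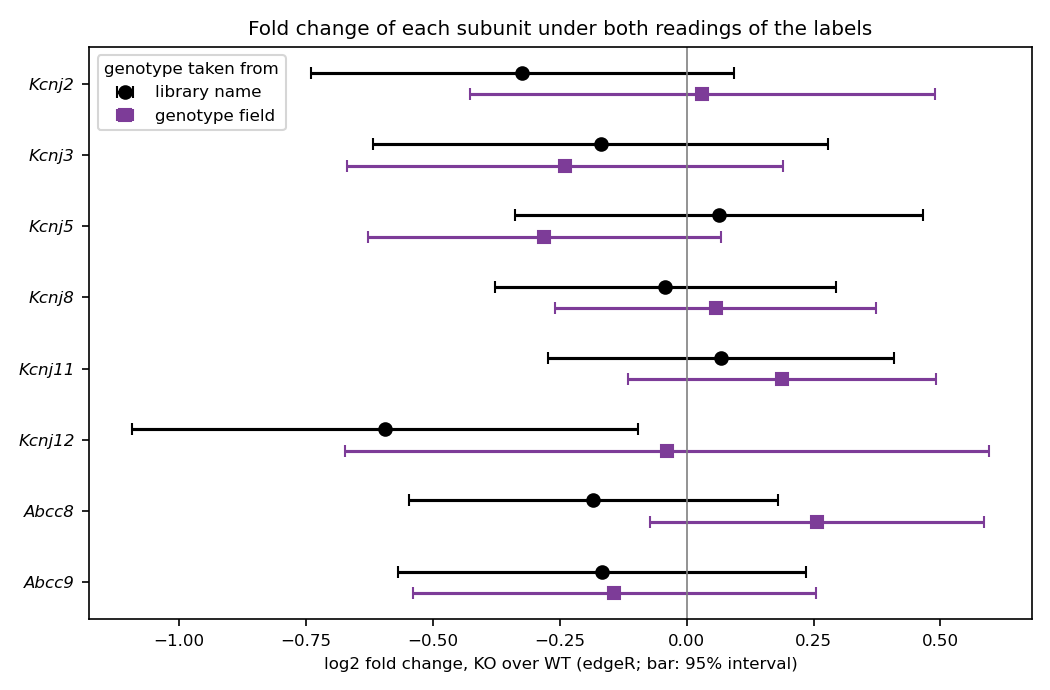
Log2 fold change, KO over WT, of each subunit with its 95% interval from edgeR; black circles take the genotype from the library name and purple squares from the genotype field. The 1 interval that does not reach 0 is that of Kcnj12 by library name (-1.09 to -0.10), and its adjusted p is 0.99993.

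Ratios within a library do not depend on depth or scaling, and 6 were formed, after the data were seen, among subunits that assemble or replace one another. The ratio of Kcnj11 to Abcc8, the neighbouring genes of pore and receptor, was 2.83, 3.07 and 3.00 in KO replicates 1, 2 and 3, and 2.36, 2.57 and 2.51 in WT replicates 1, 2 and 3, per kb of exon. The KO libraries were higher in 3 of 3 cases and the groups by library name do not overlap, with averages of 2.97 ± 0.13 and 2.48 ± 0.11 (SD, n = 3 each). The exact two-sided permutation p was 0.1, the smallest that 3 against 3 allows, and 0.6 after adjustment over the 12 tests of 6 ratios in both readings. Permuted within replicate numbers, as pairs, the exact p was 0.25, the smallest that 3 pairs allow. Y-linked genes were expressed in all 3 KO libraries and in 1 of 3 WT libraries, WT replicate 3, and their part in the ratio was not tested. A further sum took Ins1, Ins2, Snap25, Th and Dbh, listed as markers of pancreatic beta cells and nerve cells that also use SUR1. The sum was 37.1, 48.3 and 40.4 CPM in KO replicates 1, 2 and 3. In WT replicates 1, 2 and 3 it was 24.6, 24.4 and 25.2 CPM, so it parted the same groups. Dbh, the noradrenaline-making enzyme, was the largest part of the sum, at 35.3 to 38.2 CPM in KO and 19.9 to 24.3 CPM in WT libraries. Of the 5 genes only Dbh parted the groups by itself, as did 3.33% of all genes tested with KO higher. Snap25 was at 0.454, 10.4 and 1.91 CPM in KO replicates 1, 2 and 3, and 0, 3.45 and 0.132 CPM in WT replicates 1, 2 and 3; Th was at 0.245 to 2.54 CPM in KO and 0.2998 to 1.84 CPM in WT libraries, and both insulin genes were at 0. Their part in the ratio was not tested. By genotype field the same ratio overlapped, at 2.64 ± 0.17 in KO and 2.81 ± 0.39 in WT.

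By genotype field, the ratio of Abcc8 to Abcc9 was 2.25, 2.42 and 2.20 in the libraries with KO in the field (KO replicate 1, WT replicates 2 and 3), and 1.67, 2.00 and 1.60 in those with WT (KO replicates 2 and 3, WT replicate 1). These groups do not overlap either (exact permutation p = 0.1, adjusted 0.6, and 0.25 permuted within pairs), and by library name they do. In each reading 1 of 6 ratios had groups that do not overlap, beside 6.24% of all pairs of tested genes by library name and 11.3% by genotype field; 6 ratios are too few to set this count above those shares. The summed ventricular markers moved with the same split: Myl2, Myl3, Myh7 and Irx4 came to 536, 697 and 439 CPM in the libraries with KO in the field and 149, 368 and 285 CPM in those with WT, with Irx4 at 0 counts in WT replicate 1. Myl2, Myl3 and Irx4 each followed the split, as did 7.48% of all genes tested. Irx4 did so on 10, 11 and 11 counts in the libraries with KO in the field and 1, 1 and 0 in those with WT. Myh7 did not follow it, at 119, 150 and 139 CPM in the libraries with KO in the field and 47.4, 280 and 176 CPM in those with WT. The share of the body free of other genes was 33.0% in Myh7, 56.6% in Myl2, 81.1% in Myl3 and 100% in Irx4. The part of these markers in the ratio was not tested.

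The other ratios overlapped in both readings. Kcnj11 exceeded Kcnj8 by 2.96 to 4.11 times in KO libraries and 2.91 to 3.83 times in WT libraries, per kb of exon. Abcc9 stood at 0.578 to 0.647 of Kcnj8 in KO libraries and 0.467 to 0.865 in WT libraries. Kcnj2 was 1.08 to 1.30 times Kcnj12 in KO libraries and 0.916 to 1.22 times in WT libraries on this scale.

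**Figure D5:**
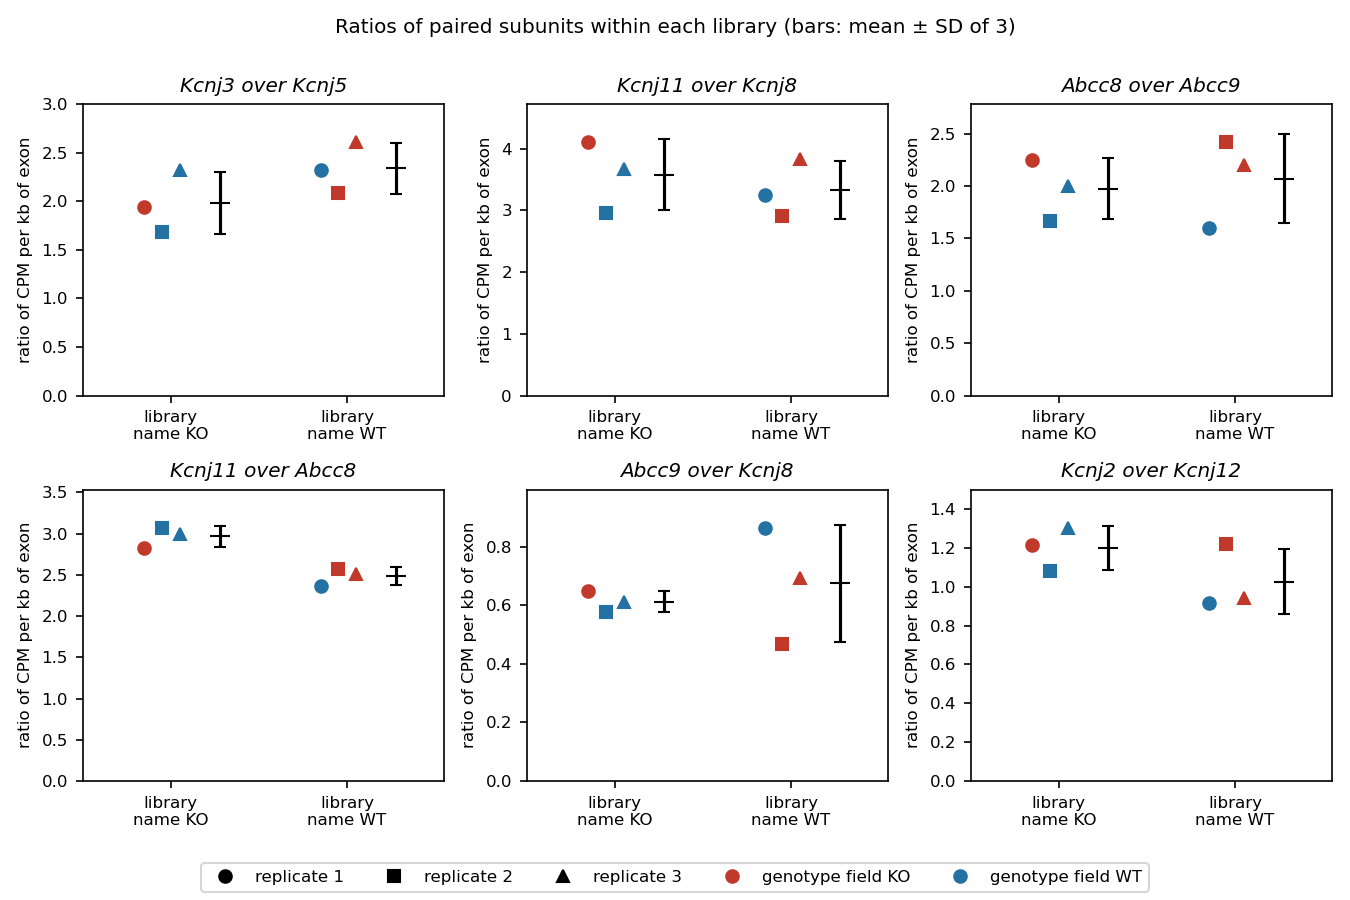
The 6 ratios of subunits, each the ratio of CPM per kb of exon within 1 library; libraries named KO are on the left and libraries named WT on the right of each panel, shapes give the replicate, red is KO and blue is WT in the genotype field, and bars are the mean ± SD of 3. Kcnj11 over Abcc8 is 2.83 to 3.07 in KO and 2.36 to 2.57 in WT, and in Abcc8 over Abcc9 the 3 red points lie above the 3 blue ones.

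The rest of the Kir family was nearly silent. Of 9 other Kir genes, Kcnj13 and Kcnj15 had 0 counts in all 6 libraries and have no part of the body free of other genes, so no level is given, and 3 passed the low-count filter. These 3, Kcnj6, Kcnj10 and Kcnj14, were all higher in KO by library name, beside 45.5% of all genes. Only 1 of 3 was higher by genotype field, beside 48.1% of all genes. In both readings 0 passed the test. Kcnj14 was at 1.04 ± 0.396 CPM in KO and 0.792 ± 0.375 CPM in WT, and Kcnj6 at 1.04 ± 0.576 CPM in KO and 0.874 ± 0.337 CPM in WT (SD, n = 3 each), by library name. By genotype field, Kcnj10 was at 0.82 ± 0.55 CPM in KO and 1.85 ± 0.62 CPM in WT, which in edgeR is -1.23 on the log2 scale (SE 0.56, adjusted p = 0.868).

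Genes that gate Kir3 channels did not pass the test either. Of 22 receptors, G protein subunits and RGS proteins, 20 were tested. Gnb2 and Gng10 had 0 counts, but 0% and 0.22% of their bodies are free of other genes, so no level is given. Of the 20, 7 were higher and 13 lower in KO by library name, with a median log2 fold change of -0.03. There were 3 higher and 17 lower by genotype field, with a median of -0.06. Over all genes 45.5% and 48.1% were higher in the 2 readings, with medians of -0.02 and -0.01. Adora1, the adenosine receptor that opens the same channel, was at 7.95 ± 2.66 CPM in KO and 5.08 ± 0.93 CPM in WT libraries, or 0.65 on the log2 scale (SE 0.29, adjusted p = 0.99993), and Rgs3 at 0.27 (SE 0.16). By genotype field Adora1 was at -0.55 (SE 0.30) and Rgs2, a brake on G protein signalling, at -0.34 (SE 0.20). Chrm2, the M2 receptor, chosen after its values were seen, was at 214, 172 and 194 CPM in KO replicates 1, 2 and 3, and 336, 171 and 240 CPM in WT replicates 1, 2 and 3. WT replicate 1 was the highest library for Chrm2, as it was for Kcnj3 and Kcnj5, and for 27.4% of all genes tested.

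A further list held 10 genes for the supply of PIP2, the lipid that all Kir channels need to open, and for channel trafficking. Of these, 3 were higher and 7 lower in KO by library name, beside 45.5% of all genes higher. There were 4 higher and 6 lower by genotype field, beside 48.1% of all genes higher. The medians were -0.09 and -0.13, and 0 passed the test. Ap1g1, of the adaptor that sorts Kir2.1 at the Golgi, was at -0.43 (SE 0.33) and Ank2, an ankyrin that binds Kir6.2, at -0.18 (SE 0.17) by library name. By genotype field Pip5k1c, a PIP2-making kinase, was at 73.8 ± 13.7 CPM in KO and 54.5 ± 5.3 CPM in WT (SD, n = 3 each), or 0.44 on the log2 scale (SE 0.16, adjusted p = 0.820), and Pi4kb at -0.33 (SE 0.16).

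Markers listed for atrial muscle were high in every library: Nppa, Myl7, Myl4, Sln and Myh6 summed to 36562 to 44954 CPM in KO and 36056 to 41470 CPM in WT libraries. Of these Myh6, at 7606 to 12772 CPM, is not particular to the atrium, and only 27.2% of the body of Nppa is free of other genes. Sinoatrial node markers (Hcn4, Shox2, Tbx3, Isl1 and Tbx18) summed to 34.5 to 55.6 CPM in KO and 40.8 to 51.7 CPM in WT libraries. Endothelial markers summed to 736 to 873 CPM in KO and 785 to 855 CPM in WT libraries, fibroblast markers to 1265 to 1619 CPM in KO and 1423 to 1548 CPM in WT libraries, with Tcf21, which has no part of its body free of another gene, at 0 in all 6. Macrophage markers summed to 292 to 342 CPM in KO and 268 to 376 CPM in WT libraries, and Schwann cell markers to 43.6 to 54.2 CPM in KO and 47.0 to 63.3 CPM in WT libraries. By library name, these sums overlap between the groups.

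For each subunit, the 2 of 14707 other tested genes with the most alike pattern over the 6 libraries are given as a description, by Pearson r on log2(CPM + 0.5). They were Dsg2 and Tanc1 for Kcnj2, Prpf4 and Hmgxb4 for Kcnj3, 1810030O07Rik and Paqr8 for Kcnj5, and St3gal2 and Fat1 for Kcnj8. For Kcnj11 they were Hipk4 and Mboat2, for Kcnj12 Uba6 and F5, for Abcc8 Calcoco1 and Ccdc97, and for Abcc9 Hnrnpul1 and Msi2. These r lie between 0.987 and 0.999, but with 6 libraries and so many candidates, 68 genes for Kcnj11 and up to 615 for Abcc9 had an r above 0.9.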

How the data were processed

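RNA of 6 atria was sequenced, 1 library per mouse. The authors deposited raw counts of reads per Ensembl gene. Per the submitters' processing notes, reads were handled with HISAT2 2.1.0 on GRCm38 and featureCounts 1.5.0-p3, next to FastQC 0.11.5 and MultiQC 1.7. The sources used here do not give the strand setting, the kind of feature counted or the release of the annotation; the TruSeq v2 kit named in the labels' protocols does not mark strand. Symbols were found for 54723 of 54838 identifiers; positions and lengths are from GENCODE M21 (GRCm38), promoter sequences from RefSeq (GRCm38.p6).

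KO was tested against WT over all genes with edgeR 4.0.16 in R 4.3.3 (quasi-likelihood F test, robust, TMM, filterByExpr), two-sided, Benjamini-Hochberg adjusted p 0.05, by library name and by genotype field; SE is the size of the fold change (log2) divided by the root of F. DESeq2 1.42.0 and limma-voom 3.58.1 were alternatives, and the code was tested on simulated data. CPM uses TMM-scaled library sizes. Intervals of counts are Poisson (95%) and cover counting error only. Subunits and lists were chosen with earlier results of these data known. Genes named are the subunits, Prkce, the 2 smallest p of each list and the 2 most alike genes, with exceptions stated.

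Replicate numbers come from the sample titles. Deviations from group means of same-numbered libraries correlated at 0.16, 0.17 and 0.12 by library name and 0.31, 0.26 and 0.12 by genotype field, so the numbers were taken to pair the libraries. The main edgeR fits, with their SE, intervals and adjusted p, leave this pairing out. It enters only as the replicate block among the alternatives and in the paired permutation of the ratios. Every pair of libraries differed by more than sampling noise, with a chi-square of at least 18.8 per degree of freedom.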

Additional observations from a re-analysis of the deposited data

How the results depend on the processing

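Of 240 refitted fold changes of the subunits (8 genes, both readings, 15 alternatives), 0 passed the test, and the smallest adjusted p was 0.552, for Kcnj5 by genotype field with the replicate block; the block changed no call of a subunit. By library name, Kcnj2, Kcnj12 and Abcc8 were lower in KO under all 15 alternatives, and by genotype field Kcnj3 and Kcnj5 were lower and Kcnj11 and Abcc8 higher under all 15. Signs turned in 27 cases, and the cause was not tested. By library name these were Kcnj8 at 0.049 and Kcnj11 at -0.037 with the Y-linked covariate, Kcnj3 at 0.061 and Kcnj11 at -0.089 in the numbered series, and Kcnj5 at -0.019 and Kcnj8 at 0.10 without the 2 libraries at odds with Prkce. Leaving out 1 library gave -0.31 to 0.057 for Kcnj3, -0.055 to 0.29 for Kcnj5, -0.10 to 0.039 for Kcnj8, -0.057 to 0.14 for Kcnj11 and -0.31 to 0.037 for Abcc9. By genotype field Kcnj12 turned to 0.058 in limma-voom, 0.038 with the replicate block, 0.045 with the library series, 0.084 with the Y-linked covariate and 0.46 in the numbered series, Abcc9 to 0.016 in the numbered series, and Kcnj2 to -0.17 without the 2 libraries at odds with Prkce. Leaving out 1 library gave -0.17 to 0.28 for Kcnj2, -0.020 to 0.12 for Kcnj8, -0.25 to 0.40 for Kcnj12 and -0.27 to 0.063 for Abcc9. In the numbered series both readings split the same 4 libraries with opposite labels.

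Over all genes, the count called by library name was 0 (219 at an unadjusted p under 0.05; 0 in DESeq2 and limma-voom), 1 without the low-count filter, 3 in the numbered series, 6 without the 2 libraries at odds with Prkce and 0 to 4 leaving out 1 library. By genotype field it was 2, and 27 in DESeq2, 1 in limma-voom, 25 without the filter, 51 with the replicate block, 7 with the library series and 0 to 2 leaving out 1 library. For the 2 ratios whose groups do not overlap, in checks chosen after seeing the data, leaving out 1 library gave 0.22 to 0.29 on the log2 scale for Kcnj11 over Abcc8 and 0.32 to 0.49 for Abcc8 over Abcc9; the sign could not turn, since the groups do not overlap. Each subunit had 141 to 13903 counts per library, and with 3 libraries a group and conflicting labels the intervals stay wide.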
